A study of Homo sapiens with 6 samples.

Results

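The genes of DNA replication and S phase were followed in MDA-MB-231, an established line of triple-negative breast cancer cells, after knockdown of PUS1, a pseudouridine synthase that isomerizes uridine in RNA. The set comprised 39 genes named by symbol, of 60605 genes in the deposited table, from the origin licensing factors through the replicative polymerases to the enzymes of deoxynucleotide supply, and the rule uses no measured value. The control arm carried a control hairpin (genotype shRNA control, here shControl) and the other arm a hairpin against PUS1 (genotype PUS1 knockdown, here shPUS1), with 3 libraries of poly(A) RNA each; no other allele or agent separated the arms. According to the study's methods, hairpins against PUS1 were delivered by lentivirus and the infected cells were selected and kept in puromycin. The labels call the replicates biological, and the sources used here give neither the hairpin carried by the sequenced cells nor whether each replicate had its own infection and selection, so p-values measure the spread between these libraries only.

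Before DNA synthesis, the origin recognition complex, CDC6 and CDT1 load the MCM helicase onto origins, a step called licensing, and GINS and CDC45 then join MCM to form the active helicase. At the fork, primase and DNA polymerase alpha start each strand, polymerases delta and epsilon extend it on the PCNA clamp that the RFC complex loads, and FEN1 and LIG1 join the lagging strand pieces, while ribonucleotide reductase, thymidylate synthase and thymidine kinase supply the building blocks. Many of these genes are transcribed as cells enter S phase under E2F transcription factors, and their mRNA levels are widely read as a mark of proliferating cells.

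The promoters of the set carried E2F-type words more often than promoters at large. The words TTTCCCGC, TTTGGCGC, TTTCGCGC and TTTGCCGC were searched on both strands of RefSeq promoters (GRCh38.p14, 250 bases before to 50 bases after each annotated start). Of 34 members with a promoter given, 20 (58.8%) held at least 1 word near any of their starts, against 6.56% of 10633 tested genes and 3.99% of all 27305 genes with a promoter. The windows shown belong to genes whose mRNA differed between the arms once a control library that stood apart (shControl replicate 2) was left out; capitals mark the word, and all windows are written in the direction of transcription.
MCM3: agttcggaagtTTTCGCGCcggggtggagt
MCM6: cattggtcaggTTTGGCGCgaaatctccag
CDT1: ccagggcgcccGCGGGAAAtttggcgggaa
CDC6: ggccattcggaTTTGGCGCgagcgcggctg
POLE2: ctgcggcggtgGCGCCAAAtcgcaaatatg
TYMS: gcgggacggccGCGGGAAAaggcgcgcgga
UHRF1: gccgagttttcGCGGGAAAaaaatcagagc
They lie at chr6:52284728-52284757 (minus strand), chr2:135876515-135876544 (minus), chr16:88803743-88803772 (plus), chr17:40287875-40287904 (plus), chr14:49688201-49688230 (minus), chr18:657603-657632 (plus) and chr19:4909476-4909505 (plus), in the order shown. In the windows of MCM3, MCM6 and CDC6 the word reads on the coding strand and in the other 4 on the opposite strand. The MCM6 promoter held 4 words, which overlap in pairs on opposite strands, and those of MCM3 and, at separate starts, UHRF1 held 2. Of all 28 words in the set, 24 began upstream of the start and 16 within 50 bases of it. A word was present in 6 of the 9 matched genes that were lower without that control library and in 14 of the 25 other matched genes. MCM10, RFC5 and RRM2 held none of these letters in the windows searched. A match is a description of sequence, and no binding was measured.

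**Figure D1:**
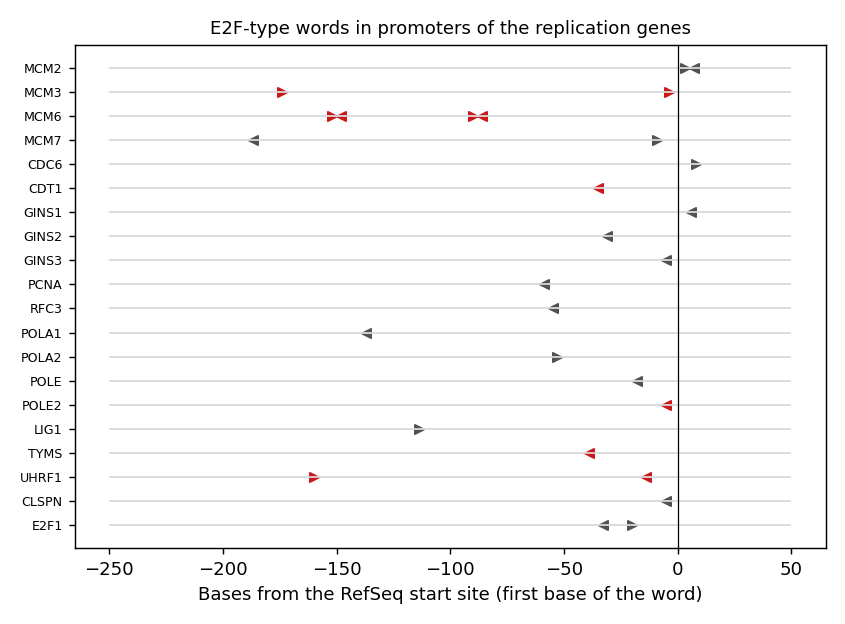
E2F-type words in the promoters of the 20 members that hold one, by the distance of the word's first base from the RefSeq start (bases; negative values lie upstream). Triangles point in the reading direction of the word, and red marks genes called lower (adjusted p under 0.05) without shControl replicate 2. CDC6, which was called higher, is not red. Of the 28 words, 24 begin upstream of the start.

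The libraries held 14241505 to 19625998 estimated counts in all, and each member had between 107 and 9653 counts in every library. PUS1 mRNA was measured at 14.5, 27.5 and 12.1 CPM (counts scaled to the library total and its TMM factor) in shControl replicates 1, 2 and 3 and at 6.57, 5.47 and 5.37 CPM in shPUS1 replicates 1, 2 and 3. The arms did not overlap, with a log2 fold change of -1.64 in shPUS1 relative to shControl (SE 0.32, adjusted p = 0.0462, edgeR; exact two-sided permutation p = 0.1, the smallest that 20 permutations allow). The call of PUS1 was lost without shControl replicate 1 (adjusted p = 0.0905) and without shPUS1 replicate 1, 2 or 3 (0.208, 0.253 and 0.192). It was also lost with limma on log2(FPKM + 1) or log2(FPKM + 0.1) (0.0569 and 0.0549). DESeq2 on all 6 libraries called PUS1 lower (adjusted p = 0.000106). Without shControl replicate 2, edgeR gave a log2 fold change of -1.20 (SE 0.16, adjusted p = 0.00311). That call was kept when shPUS1 replicate 1, 2 or 3 was also left out (adjusted p = 0.0132, 0.0183 and 0.0134). shControl replicate 2 stood apart from the other controls: its log2 CPM correlated across genes at r = 0.958 and 0.959 with replicates 1 and 3, which correlated at 0.986 with each other, while pairs of shPUS1 libraries had r between 0.991 and 0.994. Its share of mitochondrially encoded counts was 4.78%, within the 4.31% to 5.09% of the other libraries. The mesenchymal markers of this line, VIM, CD44, AXL, CAV1 and MSN, were between 345 and 2651 CPM in every library. VIM, CD44 and AXL were below all controls in all shPUS1 libraries, MSN was above all of them, and CAV1 overlapped; without shControl replicate 2, VIM and AXL were called lower, with log2 fold changes of -0.40 and -0.48 (adjusted p = 0.0305 and 0.0140), and CD44, MSN and CAV1 (-0.22, 0.18 and 0.00) did not pass the test. Of 8 luminal or epithelial markers, TFF1 was at 0 in all libraries, ESR1, PGR and FOXA1 did not exceed 0.590 CPM, and the other 4 had no call in either comparison. ERBB3 was at 28.9, 7.86 and 36.2 CPM in shControl replicates 1, 2 and 3. Among the controls, GATA3 (5.17, 6.71 and 6.54 CPM) and EPCAM (6.54, 7.81 and 6.54 CPM) were highest in replicate 2. CDH1, at 0 to 20 counts per library, was lowest there, at 0.589, 0 and 0.545 CPM in shControl. In shPUS1 it was at 0.946, 1.09 and 1.00 CPM, above all controls (log2 fold change 1.47 with all libraries, edgeR adjusted p = 0.280). The part of these differences in the results below was not tested.

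With all 6 libraries, every member had a fitted log2 fold change below 0, and none passed the test. The median log2 fold change of the 39 genes was -0.63, where that of all 14748 genes tested was -0.03, and 52.7% of all genes were below 0. The edgeR quasi-likelihood test called 0 members lower and 0 higher at an adjusted p under 0.05, where it called 0.841% and 1.74% of all genes in these directions; the smallest adjusted p among the members was 0.0505, that of CDT1. At an unadjusted p under 0.05, 23 of the 39 were lower, beside 12.8% of all genes, and 0 were higher. DESeq2 on the same libraries called 11 members lower and 0 higher, beside 5.64% and 7.37% of all genes, and limma on log2(FPKM + 1) called CDT1 alone. In 26 members every shPUS1 library lay below every shControl library, which held for 17.3% of all genes. In bulk RNA, fewer cells in S phase and less of these mRNAs per cell cannot be told apart.

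Much of this difference came from a single control library. shControl replicate 2 was the highest of the 6 libraries for 38 of the 39 members, all but RPA3, where 34.4% of all genes had their highest value in it. In that library 32 members were at least 1.5 times the mean of shControl replicates 1 and 3, which held for 15.8% of the genes tested, and the ratio had a median of 2.04 over the members (lowest 1.12, highest 4.15). The 39 genes summed to 2747, 5342 and 2517 CPM in shControl replicates 1, 2 and 3 and to 2259, 2217 and 2241 CPM in shPUS1. All shPUS1 sums therefore lay below the lowest control sum, but the controls differed among themselves by more than the lowest of them differed from shPUS1.

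**Figure D2:**
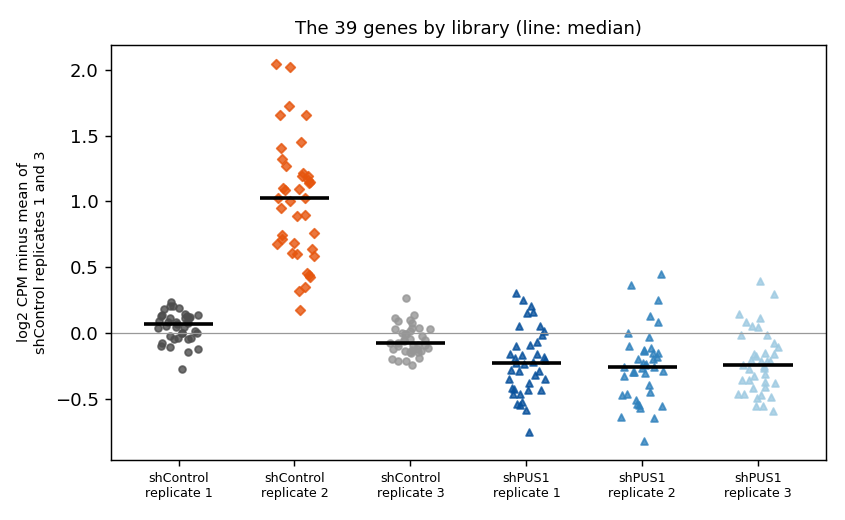
The 39 members in each library as log2 CPM (pseudocount 0.5) minus the mean of shControl replicates 1 and 3, 1 point per gene and library, with the median as a line. The medians were 1.02 in shControl replicate 2 and between -0.26 and -0.23 in the shPUS1 libraries.

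Without shControl replicate 2 part of the set was called lower, and most members did not pass the test. The median log2 fold change was -0.27 (all genes -0.02), and 33 of the 39 members were below 0, as were 52.1% of all 15130 genes tested. edgeR called 10 members lower, MCM3, MCM6, CDT1, MCM10, RFC5, POLE2, RPA3, TYMS, RRM2 and UHRF1, beside 8.79% of all genes, and 1 member higher, CDC6, beside 9.8% of all genes. DESeq2 called 9 of the same 10 lower, without MCM10, and CDC6 higher, beside 8.11% and 12.6% of all genes. No overlap between the arms was seen in the lower direction for 26 members and in the higher direction for CDC6 and CLSPN, where 25.8% and 25% of all genes had none. The other 28 members did not pass the test, with log2 fold changes from -0.57 (GINS2) to 0.27 (CLSPN). The count of lower members rested on the libraries that remained: it was 1, 2 and 5 when shPUS1 replicate 1, 2 or 3 was also left out, 3 without shControl replicate 1 and 18 without shControl replicate 3, where 2.71%, 3.31%, 5.2%, 6.28% and 11.6% of all genes were lower, with CDT1 called each time and CDC6 called only in the case without shControl replicate 1.

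**Figure D3:**
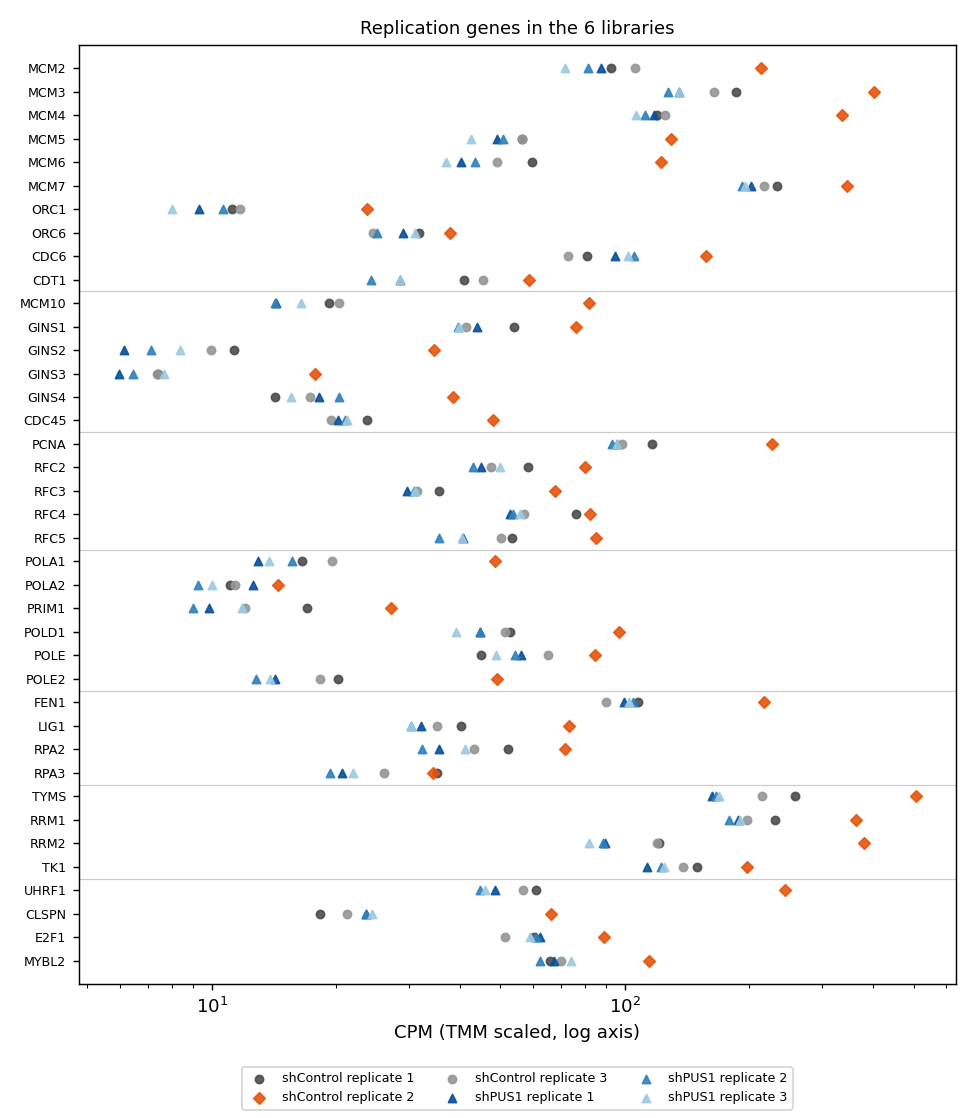
CPM of the 39 members in each of the 6 libraries on a log axis, with lines between the groups of roles. The diamonds of shControl replicate 2 are the rightmost symbol for 38 of the 39 genes, and RPA3 is the exception.

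**Figure D4:**
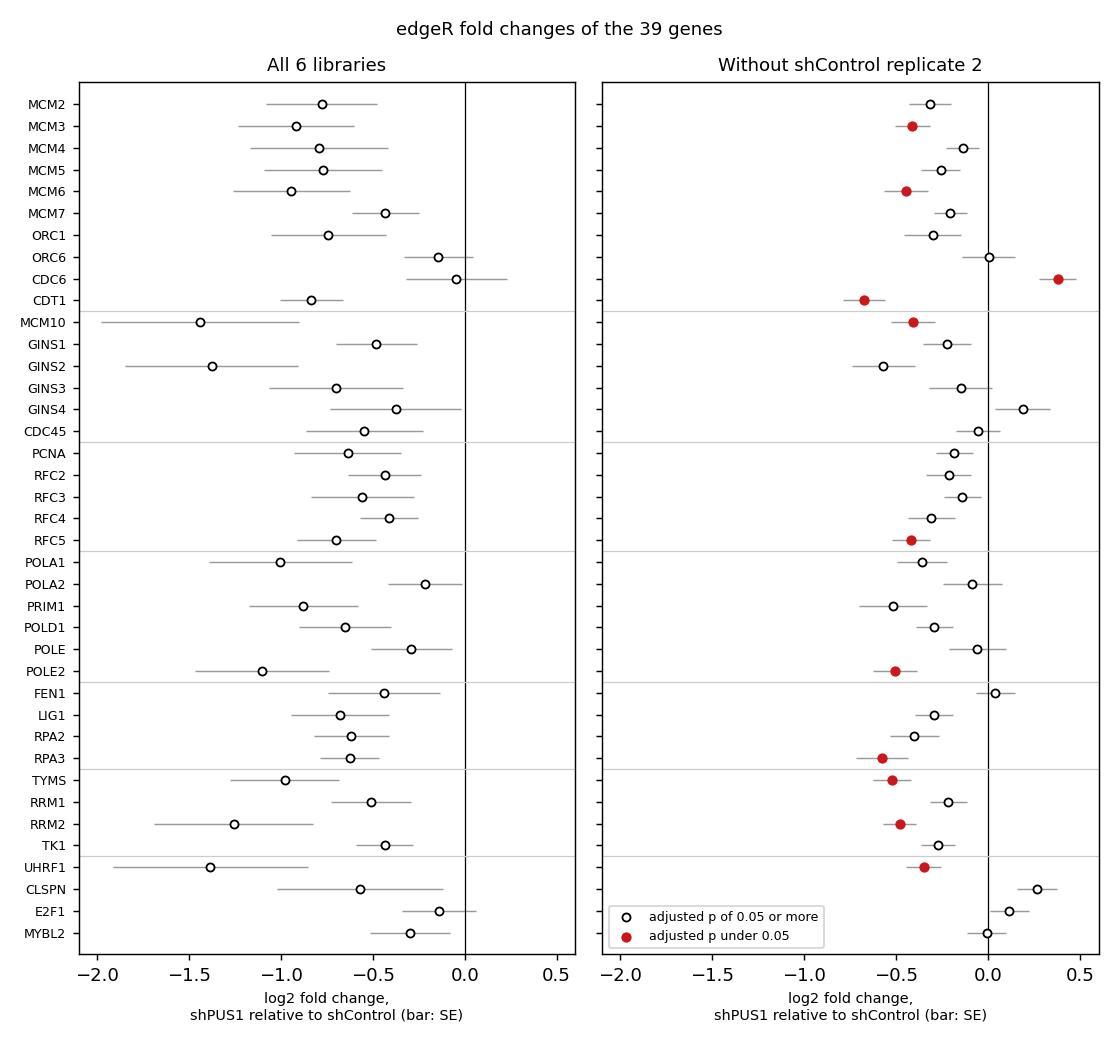
Log2 fold changes of shPUS1 relative to shControl from edgeR with bars of 1 SE, with all 6 libraries (left) and without shControl replicate 2 (right). Filled symbols have an adjusted p under 0.05: 0 genes on the left, and on the right 10 lower genes and, above 0, CDC6.

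Of the 10 origin licensing genes, 3 were lower and 1 was higher without shControl replicate 2, and 6 did not pass the test. In that comparison 8.79% of all genes were lower and 9.8% higher, so 1 higher gene of 10 is near the share of all genes. These shares also apply to the groups of roles below. With all 6 libraries 7 licensing genes had an unadjusted p under 0.05, beside 12.8% of all genes, and DESeq2 called 3, beside 5.64%, all lower. CDT1 (ENSG00000167513, chromosome 16, 88803789 to 88809258), which brings the MCM helicase to origins, was measured at 40.8, 58.7 and 45.4 CPM in shControl replicates 1, 2 and 3 and at 28.5, 24.2 and 28.5 CPM in shPUS1 replicates 1, 2 and 3. All shPUS1 libraries were below all controls, and shControl replicate 2 stood less far from the other controls than for most members, at 1.36 times their mean. The log2 fold change of CDT1 was -0.83 with all 6 libraries (SE 0.17, adjusted p = 0.0505) and -0.68 without shControl replicate 2 (SE 0.11, adjusted p = 0.00663).

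CDC6 (ENSG00000094804, chromosome 17, 40287879 to 40304657), the ATPase that loads MCM together with CDT1, went the other way. It was at 81.0, 157 and 72.9 CPM in shControl and at 94.9, 105 and 102 CPM in shPUS1. The shPUS1 libraries lay above shControl replicates 1 and 3 and below replicate 2. Its log2 fold change was -0.05 with all 6 libraries (SE 0.28, adjusted p = 0.929) and turned to 0.38 without shControl replicate 2 (SE 0.10, adjusted p = 0.0324). The direction of CDC6 thus depended on that library, and with it left out upper-quartile scaling gave 0.31 with an adjusted p of 0.0631.

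Among the subunits of the MCM helicase, MCM6 (ENSG00000076003, chromosome 2, 135839626 to 135876443) had the largest fitted change with all libraries. It was at 59.8, 122 and 49.1 CPM in shControl and at 40.2, 43.3 and 36.9 CPM in shPUS1. The arms did not overlap, although shControl replicate 3 was close to the highest shPUS1 library. The log2 fold change was -0.94 with all libraries (SE 0.32, adjusted p = 0.125) and -0.45 without shControl replicate 2 (SE 0.12, adjusted p = 0.0346). MCM3 (ENSG00000112118, chromosome 6, 52264014 to 52284881), another subunit of the ring, was at 186, 401 and 165 CPM in shControl and at 135, 128 and 135 CPM in shPUS1. All controls were higher than all shPUS1 libraries, shControl replicate 2 by far the most, and the log2 fold change was -0.92 (SE 0.32, adjusted p = 0.129), or -0.41 without that library (SE 0.10, adjusted p = 0.0216). The remaining subunits MCM2, MCM4, MCM5 and MCM7 had log2 fold changes from -0.32 (MCM2) to -0.14 (MCM4) without shControl replicate 2 and did not pass the test. Of the MCM2 exonic bases, 23.6% lie in exons of antisense genes, whose reads cannot be told apart here because the sources used give no strandedness. The origin recognition subunits ORC1 and ORC6 had values of -0.30 and 0.00.

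Helicase activation was represented by MCM10, the GINS subunits and CDC45, and 1 of the 6 genes was lower without shControl replicate 2. MCM10 (ENSG00000065328, chromosome 10, 13161558 to 13211110), which helps the loaded helicase to start unwinding, was at 19.2, 81.8 and 20.4 CPM in shControl and at 14.3, 14.2 and 16.4 CPM in shPUS1. shControl replicate 2 was 4.13 times the mean of the other controls, while these and the shPUS1 libraries were near each other without overlap. The log2 fold change was -1.44 with all libraries, the largest of the set (SE 0.54, adjusted p = 0.152), and -0.41 without shControl replicate 2 (SE 0.12, adjusted p = 0.0464; DESeq2 adjusted p = 0.0991). GINS2 (ENSG00000131153, chromosome 16, 85676198 to 85690073), a subunit of the GINS ring that completes the active helicase, was at 11.3, 34.6 and 9.95 CPM in shControl and at 6.12, 7.11 and 8.38 CPM in shPUS1. These low values did not overlap between the arms, and the log2 fold change was -1.37 (SE 0.47, adjusted p = 0.128), or -0.57 without shControl replicate 2 (SE 0.17, adjusted p = 0.0515), just short of the test. With all libraries DESeq2 called both MCM10 and GINS2 lower. GINS1, GINS3, GINS4 and CDC45 overlapped between the arms, with log2 fold changes from -0.22 (GINS1) to 0.19 (GINS4) without that control.

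Of the 5 genes of the sliding clamp and its loader, RFC5 was lower without shControl replicate 2. With all libraries 2 were lower at an unadjusted p under 0.05, beside 12.8% of all genes. RFC5 (ENSG00000111445, chromosome 12, 118013588 to 118033130), a subunit of the loader, was at 53.3, 85.3 and 50.1 CPM in shControl and at 40.6, 35.6 and 40.3 CPM in shPUS1. The shPUS1 libraries were close to each other and below all controls, with a log2 fold change of -0.70 (SE 0.21, adjusted p = 0.104), or -0.42 without shControl replicate 2 (SE 0.10, adjusted p = 0.0263). Of its exonic bases, 10.6% lie in exons of opposite-strand genes. PCNA (ENSG00000132646, chromosome 20, 5114953 to 5126626), the clamp itself, was at 116, 228 and 98.5 CPM in shControl and at 95.9, 93.2 and 96.0 CPM in shPUS1. The arms did not overlap, but shControl replicate 3 lay just above shPUS1, and the log2 fold change of -0.63 (SE 0.29, adjusted p = 0.218) became -0.18 without shControl replicate 2 (SE 0.10, adjusted p = 0.237). RFC2, RFC3 and RFC4 had -0.21, -0.14 and -0.31 in that comparison and did not pass the test.

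Among the polymerases and primase, the accessory subunit POLE2 passed the test and the catalytic subunit of the same enzyme, POLE, did not. POLE2 (ENSG00000100479, chromosome 14, 49643555 to 49688422), a noncatalytic subunit of DNA polymerase epsilon, was at 20.2, 48.9 and 18.3 CPM in shControl and at 14.2, 12.8 and 13.9 CPM in shPUS1. All shPUS1 libraries were below all controls, and the log2 fold change was -1.10 (SE 0.36, adjusted p = 0.121), or -0.51 without shControl replicate 2 (SE 0.12, adjusted p = 0.0228). POLE had -0.06 without that library (SE 0.15, adjusted p = 0.820), and the difference between both subunits was not tested. POLA1 (ENSG00000101868, chromosome X, 24693873 to 24996986), the catalytic subunit of polymerase alpha, was at 16.5, 48.5 and 19.6 CPM in shControl and at 12.9, 15.7 and 13.8 CPM in shPUS1. The highest shPUS1 library and the lowest control were near each other, and the log2 fold change of -1.0 (SE 0.39, adjusted p = 0.163) became -0.36 without shControl replicate 2 (SE 0.14, adjusted p = 0.0979). PRIM1, the catalytic subunit of primase, had -0.52 in that comparison (SE 0.19, adjusted p = 0.0859) and was called lower by DESeq2 with all libraries (adjusted p = 0.0468). POLD1 and POLA2 had -0.29 and -0.09. Of the 100-base stretches of POLA2 transcripts, 32.9% occur in the overlapping gene AP000944.2, so its counts are uncertain.

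In strand maturation and single-strand binding, RPA3 was the member for which shControl replicate 2 stood closest to the other controls, at 1.12 times their mean. RPA3 (ENSG00000106399, chromosome 7, 7636518 to 7718607), the smallest subunit of the complex that coats unwound DNA, was at 35.1, 34.3 and 26.1 CPM in shControl and at 20.7, 19.3 and 21.96 CPM in shPUS1. Here shControl replicates 1 and 2 were level, and all controls were above all shPUS1 libraries. The log2 fold change was -0.63 with all libraries (SE 0.16, adjusted p = 0.0746) and -0.58 without shControl replicate 2 (SE 0.14, adjusted p = 0.0265). LIG1 (ENSG00000105486, chromosome 19, 48115445 to 48170603), the ligase that seals lagging strand fragments, was at 40.2, 73.1 and 35.2 CPM in shControl and at 32.1, 30.4 and 30.3 CPM in shPUS1. The arms did not overlap, but the log2 fold change of -0.68 (SE 0.27, adjusted p = 0.165) became -0.29 without shControl replicate 2 (SE 0.10, adjusted p = 0.0811) and did not pass the test. RPA2 had -0.40 (adjusted p = 0.0704), and FEN1, the flap nuclease, had 0.04 (adjusted p = 0.816) with shPUS1 libraries between shControl replicates 1 and 3.

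The 4 genes of nucleotide supply did not overlap between the arms, and 2 of them were lower without shControl replicate 2. RRM2 (ENSG00000171848, chromosome 2, 10120698 to 10211725), the small subunit of ribonucleotide reductase whose level limits the enzyme in cycling cells, was at 121, 380.0 and 120.0 CPM in shControl and at 89.5, 88.4 and 82.1 CPM in shPUS1. shControl replicates 1 and 3 were almost equal and replicate 2 was 3.16 times their mean. The log2 fold change of RRM2 was -1.26 with all libraries (SE 0.43, adjusted p = 0.129) and -0.48 without shControl replicate 2 (SE 0.09, adjusted p = 0.00970). TYMS (ENSG00000176890, chromosome 18, 657653 to 673578), thymidylate synthase, was at 259, 506 and 215 CPM in shControl and at 162, 167 and 169 CPM in shPUS1. All shPUS1 libraries were below all controls, with a log2 fold change of -0.98 (SE 0.30, adjusted p = 0.101), or -0.52 without shControl replicate 2 (SE 0.10, adjusted p = 0.0120). Both genes have limits of counting: 46.6% of the TYMS exonic bases lie in exons of the opposite-strand genes ENOSF1 and TYMSOS, and 18.5% of the 100-base stretches of RRM2 occur in other genes, among them AC007240.1 and RRM2P3. RRM1, the large reductase subunit, and TK1, thymidine kinase, had -0.22 (adjusted p = 0.165) and -0.27 (adjusted p = 0.0750).

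Of the 4 S phase regulators, UHRF1 was lower without shControl replicate 2 and the other 3 did not pass the test. UHRF1 (ENSG00000276043, chromosome 19, 4903080 to 4962154), which directs maintenance methylation to newly made DNA, was at 60.9, 244 and 56.8 CPM in shControl and at 48.5, 44.7 and 45.9 CPM in shPUS1. shControl replicate 2 was 4.15 times the mean of the other controls, the highest ratio of the set, and the arms did not overlap. The log2 fold change was -1.38 with all libraries (SE 0.53, adjusted p = 0.160) and -0.35 without shControl replicate 2 (SE 0.10, adjusted p = 0.0368), and 16.7% of its 100-base stretches occur in AC112777.1. CLSPN (ENSG00000092853, chromosome 1, 35720218 to 35769978), claspin, an adaptor of the replication checkpoint, was at 18.3, 66.3 and 21.3 CPM in shControl and at 23.6, 23.6 and 24.4 CPM in shPUS1. The shPUS1 libraries were above shControl replicates 1 and 3 and below replicate 2, with log2 fold changes of -0.57 (SE 0.45, adjusted p = 0.450) and 0.27 without shControl replicate 2 (SE 0.11, adjusted p = 0.127). E2F1 and MYBL2, transcription factors of cell cycle genes, had 0.12 (adjusted p = 0.464) and -0.01 (adjusted p = 0.969) in that comparison.

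Per length of transcript, the set spanned a wide range of levels in both arms. TYMS had the highest mean over all libraries, 101 FPKM (counts scaled by the authors to exonic length and library total), followed by PCNA at 86.0 and TK1 at 76.3 FPKM. POLA1 had the lowest mean at 1.35 FPKM, below GINS3 at 1.71 and POLA2 at 2.06 FPKM. Among the 10 genes called lower without shControl replicate 2, mean levels ran from 5.03 FPKM for MCM10 to that of TYMS. No member with a mean below that of MCM10, from POLA1 to GINS2 at 3.98 FPKM, was called in that comparison.

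Other genes of the pathway were listed outside the 39. Of 33 further fork and origin genes, 4 were lower and 4 higher without shControl replicate 2, near the 8.79% and 9.8% of all genes, and 23 had a log2 fold change below 0, against 30 with all 6 libraries. With all libraries edgeR called 0, beside 0.841% of all genes lower and 1.74% higher. At an unadjusted p under 0.05, 9 were lower and 2 higher. Of all 14748 genes tested, 3758 had such a p-value, and 1895 of these were lower. DESeq2 called 7 lower and 2 higher, beside 5.64% and 7.37% of all genes. GMNN, geminin, the inhibitor that binds CDT1, was at 42.1, 66.2 and 31.4 CPM in shControl and at 18.5, 20.4 and 22.4 CPM in shPUS1. The arms did not overlap, and the log2 fold change was -1.19 (SE 0.26, adjusted p = 0.0575), or -0.86 without shControl replicate 2 (SE 0.15, adjusted p = 0.00725). In the same comparison POLD2, a subunit of polymerase delta, had -0.57 (adjusted p = 0.00798) and RFC1, the large subunit of the clamp loader, rose by 0.47 (adjusted p = 0.0137). RFC1 was at 120.4, 115 and 123 CPM in shControl and at 156, 177 and 175 CPM in shPUS1, so shControl replicate 2 did not stand apart for it. GMNN kept its call when any further library was left out, whereas POLD2 lost it without shPUS1 replicate 1 (adjusted p = 0.0519) and RFC1 without shPUS1 replicate 2 (adjusted p = 0.0601).

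Among other genes of nucleotide supply, RRM2B, the p53-inducible reductase subunit, and DUT, which removes dUTP, were lower without shControl replicate 2, with log2 fold changes of -0.44 (adjusted p = 0.0177) and -0.45 (adjusted p = 0.0288). In the same comparison 2 of 9 chromatin assembly genes were lower, beside 8.79% of all genes. They were CDCA7 at -1.46 (SE 0.15, adjusted p = 0.00113) and the histone chaperone ASF1A at -0.47 (adjusted p = 0.0356). CDCA7 was at 15.6, 65.8 and 15.5 CPM in shControl and at 5.73, 4.93 and 6.43 CPM in shPUS1. For CDCA7 the lowest control was thus well above the highest shPUS1 library. CDCA7 kept its call when any further library was left out, whereas RRM2B lost its call without shPUS1 replicate 1 or 3 (adjusted p = 0.103 and 0.0578) and DUT and ASF1A lost theirs without any 1 of shControl replicate 1 and shPUS1 replicates 1, 2 and 3 (adjusted p from 0.0536 to 0.178).

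Among 18 genes of the E2F, RB and S phase cyclin group, 1 was lower and 1 higher already with all 6 libraries, beside 0.841% and 1.74% of all genes. CCNA2, cyclin A2, was at 143, 193 and 128 CPM in shControl and at 67.7, 67.0 and 75.3 CPM in shPUS1. All shPUS1 libraries were far below all controls, and the log2 fold change was -1.15 (SE 0.17, adjusted p = 0.0318), or -0.96 without shControl replicate 2 (SE 0.10, adjusted p = 0.00113). E2F7, a repressor of E2F target genes, was at 150, 176 and 181 CPM in shControl and at 288, 310.4 and 274 CPM in shPUS1. The controls were close together, and E2F7 rose by 0.78 on the log2 scale (SE 0.12, adjusted p = 0.0336), or by 0.81 without shControl replicate 2 (adjusted p = 0.00342). From all 6 libraries, both calls were lost without shControl replicate 1 (adjusted p = 0.0845 for CCNA2 and 0.0872 for E2F7) and without any 1 of the shPUS1 libraries (0.163 to 0.222); without shControl replicate 2, both were kept when any further library was left out. Without shControl replicate 2, 4 genes of the group were lower and 4 higher, beside 8.79% and 9.8% of all genes. CCNE1, cyclin E1, was among the higher at 0.75 (SE 0.15, adjusted p = 0.0138). Of 9 replication checkpoint genes, in the same comparison, 1 was called in each direction, near these shares of all genes. ATRIP was lower at -0.76 (adjusted p = 0.0344) and the kinase WEE1 higher at 0.49 (adjusted p = 0.0134). Without shPUS1 replicate 1 as well, the adjusted p of CCNE1, WEE1 and ATRIP was 0.0533, 0.0683 and 0.0566, and ATRIP also lost its call without shControl replicate 1 (0.129), shPUS1 replicate 2 (0.103) or shPUS1 replicate 3 (0.0760).

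**Figure D5:**
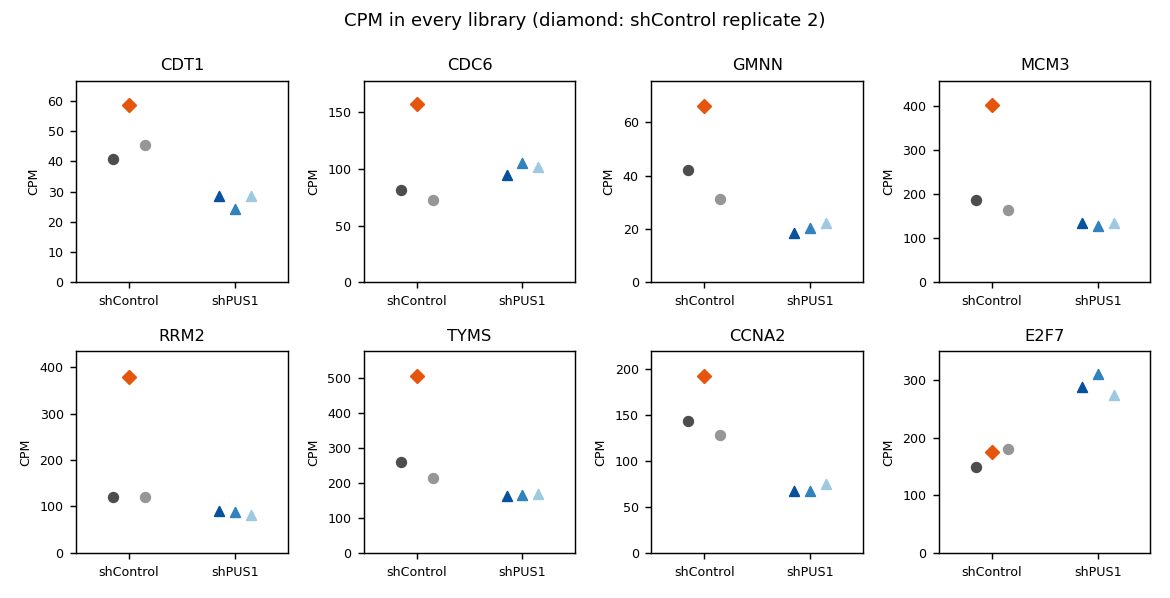
CPM in every library for CDT1, CDC6, GMNN, MCM3, RRM2, TYMS, CCNA2 and E2F7, with axes from 0; the diamond is shControl replicate 2. CDT1, GMNN, MCM3, RRM2, TYMS and CCNA2 are lower in all shPUS1 libraries than in all controls, E2F7 is higher in all, and CDC6 lies between shControl replicate 2 and the other controls.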

How the data were processed

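Poly(A) RNA of 3 shControl and 3 shPUS1 libraries was sequenced in pairs of reads. The authors aligned reads with HISAT2 and obtained expression levels with HTSeq 0.6.1, per the submitters' processing notes and the study's methods. They deposited estimated counts per gene without normalization, with no library pooled. Between 29.8% and 31.8% of the values above 0 were not whole numbers, for which the sources used here give no reason. The deposited FPKM values were made by the authors from these counts, the listed exonic length and the library total. Genome build, annotation release, strandedness and treatment of multiply mapped reads are not given in the sources used here; all 39 members lie on the chromosome given by GENCODE 29 (GRCh38), 13 with the same start and end, and coordinates are those of the deposited table.

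After rounding of the counts and the filterByExpr filter, libraries were scaled by TMM and all genes were tested with edgeR 4.0.16 (quasi-likelihood, Benjamini-Hochberg, group only, prior count 0.125) in R 4.3.3. The test was checked on simulated data with changes larger than the median change of the members and no library that stood apart. That check does not cover smaller changes or such a library. A call is an adjusted p under 0.05. DESeq2 1.42.0 and limma 3.58.1 (mean FPKM of at least 0.5) served as alternatives, beside other scalings, filters, a fold threshold, a replicate block and each library left out. Depth gave at least 107 counts per member and library. The members, lists and tests were chosen with earlier results of these data known. Per role, library values are given for the 2 members with the largest absolute log2 fold change and for every called member; of each related list, up to 3 called genes with the smallest adjusted p without shControl replicate 2 are named. Some items are not reported here. Figures were drawn with matplotlib 3.10.9 in Python 3.11.15.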

Additional observations from a re-analysis of the deposited data

How the results depend on the processing

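With all 6 libraries the median log2 fold change of the 39 genes stayed below 0 in every alternative run, from -0.68 to -0.54, and from -0.83 to -0.27 with 1 library left out. The main count of 0 lower members, beside 0.841% of all genes, became 1 (CDT1) with library totals, upper-quartile scaling or at least 50 counts in 3 libraries. Of all genes, 0.895%, 1.22% and 1.61% were lower there. The count was also 1 (CDT1) with limma on log2(FPKM + 1) or log2(FPKM + 0.1), beside 1.08% and 0.779% of all genes. Without a filter on low counts 12 members were lower, beside 1.95% of all genes, and with DESeq2 11 were, beside 5.64%. Leaving out 1 library gave 0 to 10 lower and 0 to 1 higher members. The 10 and 1 came without shControl replicate 2, beside 8.79% and 9.8% of all genes. CDC6 reversed to 0.38 there, and it ran from -0.25 to that value over the single libraries left out.

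The alternatives run on the 5 libraries without shControl replicate 2 were chosen after the data had been seen. There the 10 lower members became 16 and the 1 higher member 0 with upper-quartile scaling (median -0.34). The share of all genes went from 8.79% to 12.1% lower and from 9.8% to 7.43% higher with that scaling. Both counts of members became 0 with the added limit of 1 on the absolute log2 fold change. Leaving out a further library gave 1 to 18 lower members (2.71% to 11.6% of all genes), 0 to 1 higher members and a median from -0.31 to -0.20; where 1 control remained, it was assumed to vary like the other arm. The cause of these changes was not tested.

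Between the arms, libraries of replicate number 1, 2 and 3 had residual correlations of -0.07, -0.04 and -0.24 across genes. With 3 libraries per arm, these values cannot decide whether libraries of the same number shared a batch, and the labels do not say. The replicate block called 0 members with all libraries, beside 0% of all genes lower and 0.122% higher. Without shControl replicate 2 it called 0 members lower and 0 higher, beside 2.04% and 2.39% of all genes (CDT1 at an adjusted p of 0.0754). It also ended the calls of PUS1, CCNA2 and E2F7 with all libraries (0.0969, 0.0804 and 0.116) and, without shControl replicate 2, those of POLD2, RFC1, RRM2B, DUT, ASF1A, ATRIP and WEE1 (0.135 to 0.215), but not those of PUS1, CCNA2, E2F7, GMNN, CDCA7 and CCNE1. Whether the block fits the design is thus not settled, and the calls lost there rest on treating all libraries as independent.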
